A study of Mus musculus with 36 samples.

Results

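RNA was sequenced from the epididymal white adipose tissue (eWAT) of WT mice and of CCL19-KI mice, and 9 genes that lie away from the *Ccl19* gene and whose level went with the genotype label are described here. The genes were *Hist1h4m*, *Hist1h4n*, *Naip6*, *Gm16867*, *Ide*, *Srp54a*, *Srp54b*, *Dynlt1b* and *Fam177a*. They were taken by symbol from the 24750 genes of the normalized table, and all 9 passed the filter on low values, as did 17852 genes in all. They had been chosen because CCL19-KI and WT mice differed in them, so their genotype differences are descriptions and were given no test. *Hist1h4m*, *Naip6* and *Gm16867* passed the filter mainly through the CCL19-KI mice, in which they are high.

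The 36 male mice were labelled C57BL/6, and 12 groups held 3 mice each. Mice of both genotypes were fed a normal diet (ND), a high-fat diet (HFD) of 40% or of 60%, and ligature-induced periodontitis (LIP) was set up in 1 of the 2 groups for each genotype and diet. Diets were given for 10 weeks. The ligature was placed at 14 weeks of age, after 8 weeks of diet, and was kept for 2 weeks. In CCL19-KI mice the mouse *Ccl19* gene had been put into the *Adipoq* locus, which is read in adipocytes, by CRISPR/Cas9, and by the study's methods the endogenous *Adipoq* gene was not disrupted. *Adipoq* had a median of 2323 normalized CPM in WT and 616 in CCL19-KI libraries. Founders were crossed with C57BL/6J mice. The knock-in line was kept by mating homozygotes with each other, and WT mice were bred separately from C57BL/6 parents, so that the knock-in and anything else that differs between the breeding stocks cannot be told apart in a comparison of the genotypes.

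The 9 genes have unrelated roles. *Hist1h4m* and *Hist1h4n* encode histone H4, the core protein of the nucleosome, from neighbouring genes that are read mostly in dividing cells. *Naip6* belongs to the NAIP family, whose better-known members detect bacterial proteins and start the NLRC4 inflammasome. *Ide* encodes insulin-degrading enzyme, a zinc protease that cuts insulin and other small peptides. *Srp54a* and *Srp54b* encode the subunit of the signal recognition particle (SRP) that binds the signal sequence of secreted proteins on the ribosome. *Dynlt1b* encodes a Tctex-type light chain of cytoplasmic dynein, the motor that carries cargo along microtubules. *Fam177a* has no well-known function, and *Gm16867* is a predicted gene.

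The libraries held 11962228 to 21581595 reads (median 15573273), and 1 read was worth 0.0472 to 0.0834 normalized CPM (counts scaled to library size). *Ccl19* checked the labels, and 2 libraries went against them. The library labelled WT fed an ND without ligature, replicate 2, had 19.2 normalized CPM of *Ccl19*, and the library labelled CCL19-KI fed a 60% HFD without ligature, replicate 3, had 0.69. The other 17 WT libraries had 0.51 to 4.51 and the other 17 CCL19-KI libraries 5.57 to 34.6. *Gm2564*, which is at 0 reads in 16 of 18 WT libraries, was 41.9 normalized CPM in the first of these libraries and 0 in the second. Neither library was relabelled, and values are given with and without them. Both also held RNA of epididymis marker genes, with a summed level of the 6 markers of 5401 and 13060 normalized CPM, against medians of 0.96 in WT and 2.47 in CCL19-KI libraries. These markers were also high in libraries that did not go against their labels, at 3796, 2864, 1970 and 1257 in the next 4. All 8 adipocyte markers were present in the tissue, with a summed level of 5180 to 27669 normalized CPM in WT and 6379 to 22219 in CCL19-KI libraries. The 8 hepatocyte markers also ranged widely, from 131 to 39722 in WT and from 880 to 40588 in CCL19-KI libraries. In whole tissue, fewer cells of a type and less RNA per cell cannot be told apart.

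All genes but *Ide* share much of their transcript with other genes of the genome. The coding sequences below are from the GENCODE M21 transcripts (GRCm38) and show how little separates a gene from its copy. The 312 coding bases of *Hist1h4m* and *Hist1h4n* are identical, and the first 300 are given once:
Hist1h4m and Hist1h4n, coding bases 1 to 300: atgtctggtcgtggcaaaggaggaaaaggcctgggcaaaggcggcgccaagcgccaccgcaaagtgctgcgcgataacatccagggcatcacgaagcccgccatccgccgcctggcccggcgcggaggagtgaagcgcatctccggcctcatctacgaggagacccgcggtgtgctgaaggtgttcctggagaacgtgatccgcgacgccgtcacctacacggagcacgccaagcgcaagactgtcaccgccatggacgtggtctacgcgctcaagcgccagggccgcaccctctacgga
*Dynlt1b* differs from *Dynlt1f* at 1 of 342 coding bases, which is in capitals in these stretches:
Dynlt1b, coding bases 1 to 120: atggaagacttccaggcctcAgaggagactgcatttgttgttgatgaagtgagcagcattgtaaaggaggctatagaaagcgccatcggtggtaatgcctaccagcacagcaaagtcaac
Dynlt1f, coding bases 1 to 120: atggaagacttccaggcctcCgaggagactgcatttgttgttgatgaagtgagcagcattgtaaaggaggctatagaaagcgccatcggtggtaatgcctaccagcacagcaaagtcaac
*Naip6* is less alike its nearest copy, and the 120 coding bases with most differences from *Naip5* have 11, which are in capitals:
Naip6, coding bases 7 to 126: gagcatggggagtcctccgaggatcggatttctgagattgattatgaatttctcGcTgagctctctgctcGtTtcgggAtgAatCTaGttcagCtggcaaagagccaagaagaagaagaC
Naip5, coding bases 7 to 126: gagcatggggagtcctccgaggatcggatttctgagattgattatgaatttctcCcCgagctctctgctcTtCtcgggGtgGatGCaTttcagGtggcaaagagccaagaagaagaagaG
RSEM, the counting tool of the study, shares a read that fits several transcripts among them by estimate. The share of a gene's 31-base words that also occur in transcripts of other genes was 91.7% for *Hist1h4m*, 87.5% for *Hist1h4n*, 93.7% for *Gm16867*, 72.5% for *Srp54a*, 89.9% for *Srp54b*, 86.9% for *Dynlt1b*, 98.5% for *Fam177a* and 35.0% for *Naip6*. It was 0.665% for *Ide*. The level of a gene with many shared words is therefore uncertain as a level of that copy alone, and sums over copies are given where the copies were analysed.

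*Hist1h4m* was read in CCL19-KI mice and was at 0 in nearly all WT mice, while the sum of *Hist1h4m* and *Hist1h4n* was close in both. *Hist1h4m* (ENSMUSG00000069306, chromosome 13, 21811746 to 21812147, plus strand, a gene of 1 exon) had 0 reads in 16 of 18 WT libraries, 0.57 normalized CPM (9 reads) in replicate 3 of the ligatured WT mice fed a 60% HFD, and 24.4 in the library labelled WT that went against its label. In CCL19-KI mice the lowest value was 0, the median 17.5 and the highest 40.0, and the only value of 0 was in the other library against its label. Without these 2 libraries, CCL19-KI mice had 6.97 to 40.0 and did not overlap with WT mice. Set against 3 reads in the shallowest WT library of a group (0.227 to 0.250 normalized CPM), the mean of the CCL19-KI mice was at least 88.7-fold higher with a ligature under an ND and at least 78.8-fold higher without a ligature under a 40% HFD. The log2 difference between the genotypes, on the log2(normalized CPM + 1) scale and averaged over the 6 combinations of diet and ligature, was 3.69, and 4.23 without the 2 libraries.

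*Hist1h4n* (ENSMUSG00000069305, chromosome 13, 21831767 to 21832196, minus strand) went the other way. Its lowest, median and highest values were 18.4, 41.8 and 124 normalized CPM in WT mice and 9.67, 20.6 and 57.4 in CCL19-KI mice, so that the genotypes overlapped. The highest CCL19-KI value, 57.4, was in the library against its label, and without it the highest was 36.1. The log2 difference was -1.01. The sum of the H4 pair had a median of 43.2 in WT and 39.0 in CCL19-KI mice, a log2 difference of -0.23. *Hist1h4m* made up a median of 45.8% of that sum in CCL19-KI libraries (34.2 to 54.5% without the 2 libraries) and at most 1.3% in the 17 other WT libraries. Aligned without gaps, the 402 bases of the *Hist1h4m* transcript differ from *Hist1h4n* at 1 base in the 5′ UTR (G36A, counted from 1 at the 5′ end of the *Hist1h4m* transcript, with the *Hist1h4m* base first), and *Hist1h4n* has 28 further bases. The split of reads between the pair thus rested on few bases.

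**Figure D1:**
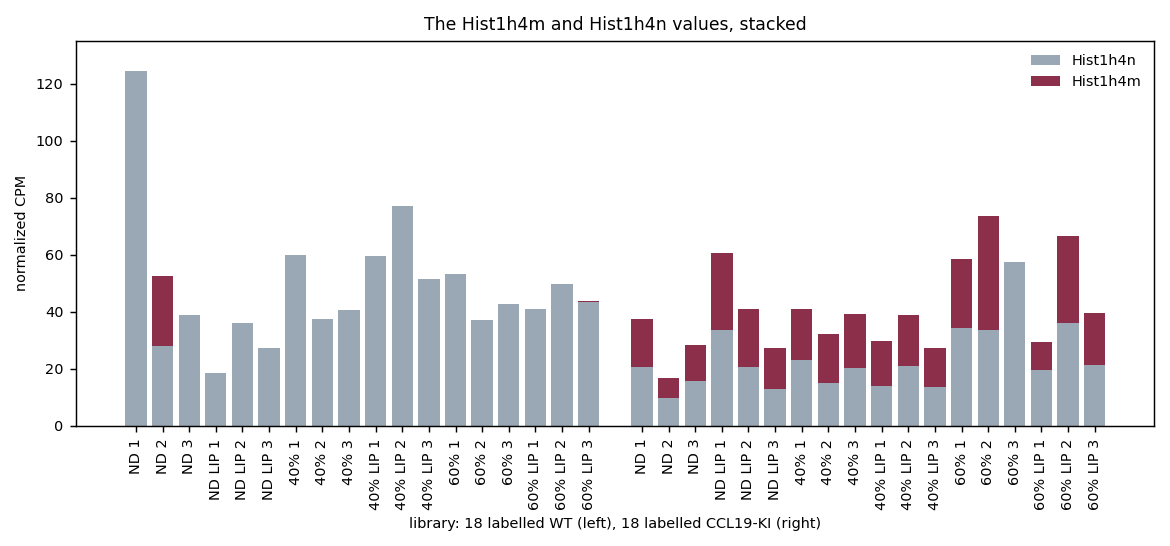
Stacked bars of the normalized CPM of *Hist1h4n* (grey) and *Hist1h4m* (dark red) in each of the 36 libraries, with the 18 libraries labelled WT on the left and the 18 labelled CCL19-KI on the right. The *Hist1h4m* part is present in 17 of 18 CCL19-KI libraries and in 2 WT libraries, ND 2 and 60% LIP 3, while the height of the sum overlaps between the genotypes.

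*Naip6* and *Gm16867* were near 0 in most WT mice and present in nearly all CCL19-KI mice. *Naip6* (ENSMUSG00000078942, chromosome 13, 100281121 to 100317674, minus strand) had a lowest, median and highest value of 0, 0.15 and 4.56 normalized CPM in WT mice and 0.10, 5.40 and 7.74 in CCL19-KI mice. At most 3 reads were seen in 11 of 18 WT libraries. The log2 difference was 2.07, and 2.35 without the 2 libraries, where the genotypes parted by a narrow margin, with 4.56 in the highest WT and 4.60 in the lowest CCL19-KI library. *Naip5*, next to it on chromosome 13, was 3.56 to 13.0 in WT and 4.32 to 9.04 in CCL19-KI mice. *Naip6* made up a median of 2.07% of the sum of *Naip5* and *Naip6* in WT and 46.1% in CCL19-KI libraries, and the sum had a median of 6.82 in WT and 12.2 in CCL19-KI mice.

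*Gm16867* (ENSMUSG00000093954, chromosome 14, 69363504 to 69503362, minus strand) had a lowest, median and highest value of 0, 0 and 7.51 normalized CPM in WT mice and 0.88, 8.72 and 15.5 in CCL19-KI mice. There were 0 reads in 10 WT libraries and at most 3 reads in 14. With a ligature under a 40% HFD, where no WT mouse had more than 3 reads, CCL19-KI mice had 11.7 ± 2.33 (SD, n = 3). The log2 difference was 2.63, and 2.93 without the 2 libraries. *Gm27177*, a copy that holds 88% of its 31-base words, had a median of 1.17 in WT and 2.35 in CCL19-KI mice. The sum of both had a median of 1.21 in WT and 12.1 in CCL19-KI mice, a log2 difference of 2.15. *Gm16867* overlaps *Entpd4* and *Gm21451* on the opposite strand. The library kit keeps the strand, but whether counting used it is not given in the sources used here, so reads of the overlapping genes cannot be told apart.

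*Ide* and *Fam177a* were read in every mouse and were higher in CCL19-KI mice, with overlap. *Ide* (ENSMUSG00000056999, chromosome 19, 37268743 to 37337852, minus strand) had a lowest, median and highest value of 65.6, 94.4 and 200 normalized CPM in WT mice and 118, 182 and 263 in CCL19-KI mice. The log2 difference was 0.88, and 0.99 without the 2 libraries, when the highest WT value was 183 in replicate 1 of the WT mice fed a 40% HFD without ligature. That library also had the lowest summed adipocyte level of all 36, 5180 normalized CPM, with 29202 of hepatocyte markers. Among CCL19-KI mice, *Ide* was highest, at 263, in replicate 3 under an ND without ligature, where hepatocyte markers summed to 27347. It was lowest, at 118, in replicate 3 under an ND with a ligature, where they summed to 2703. The levels did not always go together: replicate 3 of the ligatured CCL19-KI mice fed a 60% HFD had 209 of *Ide* with hepatocyte markers at 2798, and replicate 3 of the ligatured WT mice fed a 40% HFD had 93.4 with 25210. The part of other cell types in the level of *Ide* was not tested.

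The 3 genes on chromosome 12 lie side by side within a stretch that starts with *Srp54a* (ENSMUSG00000073079, 55080262 to 55115367), goes on with *Fam177a* (ENSMUSG00000095595, 55124469 to 55142104) and ends with *Srp54b* (ENSMUSG00000112449, 55155104 to 55189573), all on the plus strand. The 1515 coding bases of *Srp54a* and *Srp54b* are identical, and both differ from *Srp54c* at 6. *Srp54a* had the smallest difference of the 9 genes, 0.32 on the log2 scale, with 40.5, 54.4 and 96.9 normalized CPM as the lowest, median and highest values in WT mice and 59.1, 70.7 and 85.2 in CCL19-KI mice. *Srp54b* had 0.70, 20.8 and 55.0 in WT mice and 31.2, 49.9 and 61.9 in CCL19-KI mice, a log2 difference of 1.18. *Fam177a* had 10.4, 27.0 and 51.4 in WT mice and 34.3, 49.1 and 89.8 in CCL19-KI mice, a log2 difference of 0.78. All 3 overlapped between the genotypes. *Srp54c* had a median of 50.5 in WT and 49.2 in CCL19-KI mice, and the sum of the 3 *Srp54* genes had a log2 difference of 0.34. *Srp54a* made up a median of 41.9% of that sum in WT and 42.1% in CCL19-KI libraries, and *Srp54b* 18.8% and 29.1%. The lowest *Srp54b* value, 0.70, was in replicate 2 of the ligatured WT mice fed a 40% HFD, with 0.53% of the sum. The coding copy of *Fam177a*, *1700047I17Rik2*, has the same 624 coding bases and was not analysed here.

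*Dynlt1b* (ENSMUSG00000096255, chromosome 17, 6430112 to 6436296, plus strand) was lower in CCL19-KI mice. Its lowest, median and highest values were 17.8, 34.7 and 77.0 normalized CPM in WT mice and 11.3, 17.2 and 42.6 in CCL19-KI mice, a log2 difference of -0.88. The lowest WT value, 17.8, was in the library labelled WT that went against its label, and the next WT value was 27.5. Among CCL19-KI mice, the highest value, 42.6, was in replicate 1 under a 60% HFD without ligature. *Dynlt1a*, *Dynlt1c* and *Dynlt1f*, whose transcripts hold 80.7%, 82.7% and 78.5% of its 31-base words, had medians of 3.89, 3.31 and 18.6 in WT and 4.03, 4.13 and 19.1 in CCL19-KI mice. The sum of the 4 genes had a log2 difference of -0.40, against -0.88 for *Dynlt1b* alone. *Dynlt1b* made up a median of 58.2% of that sum in WT and 39.7% in CCL19-KI libraries. Without the 2 libraries against their labels, the shares were 51.7 to 64.3% and 32.4 to 46.7% and did not overlap.

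**Figure D2:**
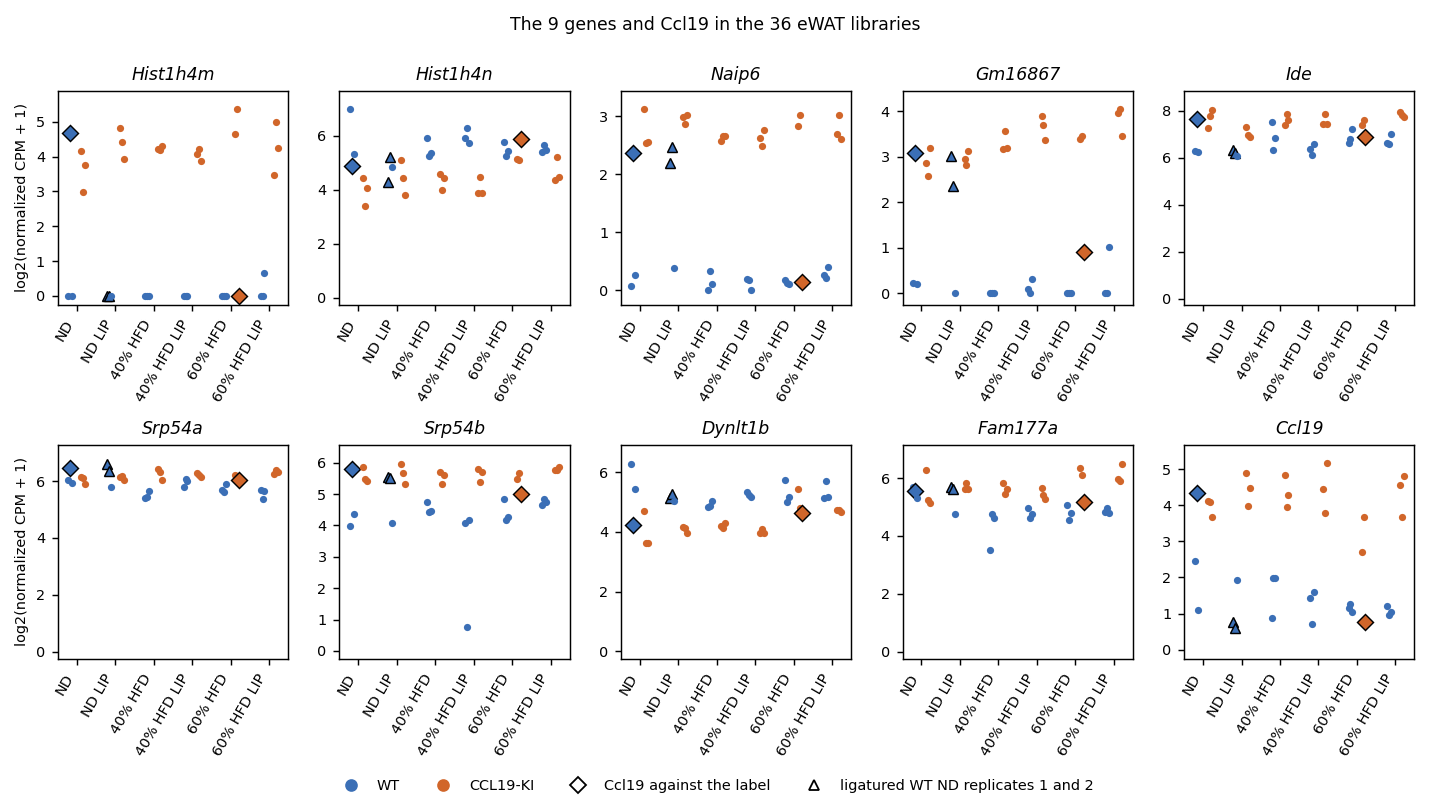
Values of the 9 genes and of *Ccl19* as log2(normalized CPM + 1) in each library, by diet and ligature, with WT in blue and CCL19-KI in orange. Diamonds are the 2 libraries whose *Ccl19* went against the label, which take the level of the other genotype for *Hist1h4m* and *Naip6*, and triangles are replicates 1 and 2 of the ligatured WT mice fed an ND, which lie nearer to CCL19-KI mice for *Naip6* and *Gm16867* and among WT mice for *Ccl19*, *Hist1h4m* and *Dynlt1b*.

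Over all 36 libraries, none of the 9 genes kept the genotypes apart, and neither did any of the 17852 genes (0%). Without the 2 libraries against their labels, *Hist1h4m* and *Naip6* did, 2 of the 4 genes that did so among all genes (0.0224%), with the others being *Ccl19* and *Gm2564*. Within a combination of diet and ligature, 3 mice stood against 3. The number of the 9 genes whose groups did not overlap was 9 with a ligature under a 40% HFD (8.97% of all genes) and 9 with a ligature under a 60% HFD (11.9%). It was 8 without a ligature under a 40% HFD (14.2%), the exception being *Ide*, and 4 with a ligature under an ND (18.9%). The combinations that hold the 2 libraries gave 2 under an ND (28.1%) and 4 under a 60% HFD (30.7%), both without a ligature. The rule used this contrast, so the counts describe the choice of genes.

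The genes were then followed from library to library, to see which of them parted from *Ccl19*. A library was said to lie nearer to the other genotype when its log2 value was closer to the median of that genotype than to that of its own. *Ccl19* and *Hist1h4m* lay nearer to the other genotype in the same 2 libraries and in no others. In the library labelled WT that went against its label, all 9 genes did so. In the one labelled CCL19-KI, 7 did, the exceptions being *Srp54a*, at 65.2 normalized CPM, and *Dynlt1b*, at 23.6. By its share, *Dynlt1b* was no exception, with 56.1% of a sum of 42.0 over the 4 *Dynlt1* genes. Without the 2 libraries, that share was 51.7 to 64.3% in WT and 32.4 to 46.7% in CCL19-KI libraries. In all, 16 libraries had none of the 9 genes nearer to the other genotype, 11 had 1, 5 had 2 and 4 had 3 or more.

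The other 2 libraries with 3 or more were replicates 1 and 2 of the ligatured WT mice fed an ND, in which the genes split. *Naip6* was 3.59 and 4.56 normalized CPM in them and 0.31 in replicate 3. *Gm16867* was 7.03 and 4.15, against 0 in replicate 3. *Srp54b* was 45.6 and 44.4, against 16.0. All 3 lay nearer to the median of CCL19-KI mice in these WT libraries, although *Naip6* in both and *Gm16867* in replicate 2 were below the lowest CCL19-KI values of 4.60 and 4.97 that remain without the 2 libraries against their labels. *Srp54a*, at 96.9 and 80.7, and *Fam177a*, at 51.4 and 48.4, were also near or above the CCL19-KI medians, against 53.8 and 26.1 in replicate 3. *Ccl19*, at 0.69 and 0.51, *Hist1h4m* and *Gm2564*, at 0 reads in both, *Ide*, at 78.4 and 72.2, and *Dynlt1b*, at 34.3 and 37.6, had the level of WT mice. *Hist1h4n* was 18.4 in replicate 1 and 36.0 in replicate 2. Of the 3 ligatured WT mice fed an ND, *Hist1h4n*, which lies beside *Hist1h4m*, lay nearer to CCL19-KI mice in replicates 1 and 3. It was 27.4 in replicate 3, where no other of the 9 genes did so. In both, *Hist1h4n* made up 100% of the H4 pair, the WT pattern, and the sum of the pair was low, at 18.4 and 27.4. Epididymis markers summed to 0.55 and 0.56 normalized CPM in replicates 1 and 2.

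Other libraries held 1 or 2 such genes. *Ide* lay nearer to CCL19-KI mice in replicate 1 of the WT mice fed a 40% HFD without ligature, at 183 normalized CPM, and in replicate 3 of those fed a 60% HFD without ligature, at 147. *Dynlt1b* lay nearer to WT mice in 4 libraries of CCL19-KI mice fed a 60% HFD and in 1 of those fed an ND. Over all libraries, *Hist1h4n* lay nearer to the other genotype in 8 libraries, *Srp54a* and *Fam177a* in 7 each, *Ide* and *Dynlt1b* in 6 each, and *Naip6*, *Gm16867* and *Srp54b* in 4 each. Apart from the library against its label, the CCL19-KI libraries counted for *Hist1h4n* held 45.5 to 58.4% of the H4 pair as *Hist1h4n*, a CCL19-KI share. Their sums of the pair were 58.5 to 73.5 normalized CPM, against a CCL19-KI median of 39.0.

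**Figure D3:**
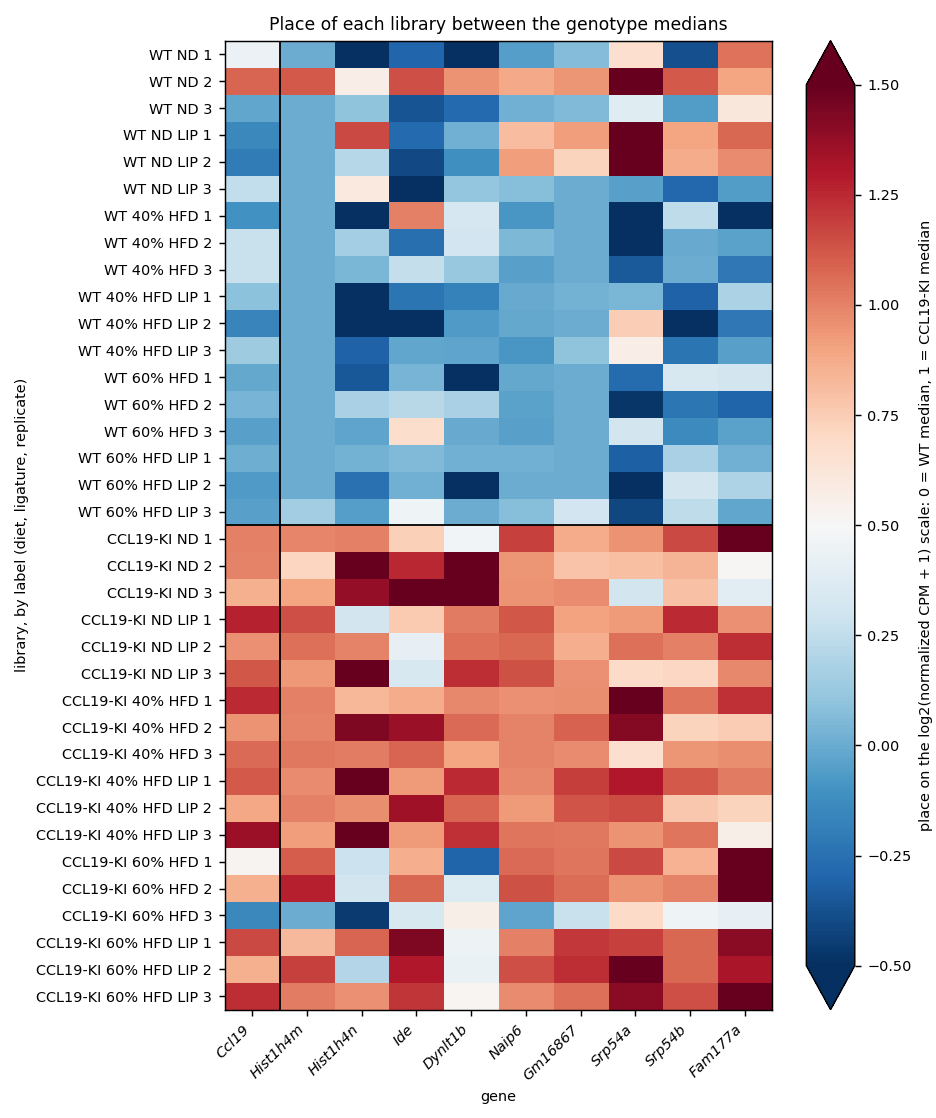
Place of each library (rows, by label) between the medians of WT mice (0, blue) and CCL19-KI mice (1, orange to red) for *Ccl19* and the 9 genes (columns), on the log2(normalized CPM + 1) scale. The WT ND 2 row is orange to red in all columns but the paler *Hist1h4n*, the CCL19-KI 60% HFD 3 row is mostly blue, and in WT ND LIP 1 and 2 the columns from *Naip6* to *Fam177a* are orange to red while *Ccl19*, *Hist1h4m*, *Ide* and *Dynlt1b* are blue.

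Diet and ligature, which the choice of genes did not use, were tested next. In 1 limma fit over all libraries, with p-values adjusted over 17852 genes, the ligature changed 0 of the 9 (0.325% of all genes), with log2 differences of -0.23 to 0.46. None had an unadjusted p below 0.05, against 16.2% of all genes, and the edgeR quasi-likelihood test called 0. *Hist1h4m*, at 0 reads in 16 of 18 WT libraries, had an unadjusted edgeR p of at least 0.9998 for ligature, diets and interactions. The edgeR counts out of 9, here and below, thus include a gene on which that test was uninformative. Under a 40% HFD, *Fam177a* fell by 0.49 on the log2 scale against an ND (standard error 0.16, adjusted p = 0.0476, limma), 1 of the 9 genes against 9.21% of all genes, a share near the background. Under a 60% HFD, *Naip6* fell by 0.77 (standard error 0.27, adjusted p = 0.0469, limma), 1 of 9 against 18.6% of all genes. The edgeR quasi-likelihood test called 3 of 9 under each diet, against 10.7% and 18% of all genes. It called *Fam177a*, *Naip6* and *Gm16867* under a 40% HFD and *Srp54a*, *Naip6* and *Gm16867* under a 60% HFD. In edgeR, *Gm16867* had a log2 difference of -3.07 under a 40% HFD (adjusted p = 0.0271) and -2.70 under a 60% HFD (adjusted p = 0.0324), and *Naip6* had -2.24 (adjusted p = 0.0135) and -2.02 (adjusted p = 0.0143). In limma, *Gm16867* had -0.43 and -0.51 and was not called. All these differences average both genotypes. In WT mice fed an HFD, group means of *Gm16867* and *Naip6* were at most 0.34 normalized CPM. The CCL19-KI means of *Gm16867*, without and with a ligature, were 6.44 and 6.86 under an ND and 9.00 and 11.7 under a 40% HFD. Under a 60% HFD they were 6.82, with the library against its label, and 13.3. Those of *Naip6* were 5.81 and 6.75, 5.20 and 5.19, and 4.43 and 5.89. In WT mice, *Gm16867* was above 3 reads in 4 libraries, which include the one labelled WT that went against its *Ccl19* and replicates 1 and 2 of the ligatured mice fed an ND. The *Naip6* call did not hold without either pair of libraries named above, nor the *Fam177a* call without the ligatured WT pair. Without replicates 1 and 2 of the ligatured WT mice fed an ND, the log2 difference was -0.34 for *Fam177a* (adjusted p = 0.250, limma) and -0.45 for *Naip6* (adjusted p = 0.307, limma). Without the 2 libraries against their labels, that of *Naip6* was -0.36 under a 60% HFD (adjusted p = 0.127, limma). In that fit 0 of the 9 genes passed for the ligature (0.358%), 2 for the 40% HFD (7.9%) and 1 for the 60% HFD (15%). *Ide* rose by 0.43 under a 60% HFD (adjusted p = 0.0204, limma) and *Naip6* fell by 0.51 under a 40% HFD (adjusted p = 0.0445, limma), as did *Fam177a* by 0.49 (adjusted p = 0.0462, limma).

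Whether the difference between the genotypes moved with diet or ligature was asked by interaction contrasts in the same fit. With the ligature, 0 of the 9 genes changed in their genotype difference (0.0056% of all genes), 0 had an unadjusted p below 0.05 (10.8% of all genes) and edgeR called 0. Under a 40% HFD against an ND, 0 of the 9 passed (0%) and edgeR called 0. An unadjusted p below 0.05 was found for 3 of the 9, against 11% of all genes. These were *Srp54a*, *Gm16867* and *Fam177a*, all with a difference above that under an ND. Under a 60% HFD against an ND, *Srp54a* passed, 1 of 9 against 0.476% of all genes. Its genotype difference was larger under a 60% HFD by 0.68 (standard error 0.16, 95% interval 0.36 to 1.00, adjusted p = 0.0448, limma). The edgeR test called 2 of 9, *Srp54a* and *Gm16867*, against 6.05% of all genes. In limma, the interaction of *Gm16867* was 1.60 (adjusted p = 0.148, limma) and was not called. It was 0.70 without replicates 1 and 2 of the ligatured WT mice fed an ND (adjusted p = 0.529, limma). Without the 2 libraries against their labels, it was 1.54 (adjusted p = 0.0838, limma). Under an ND, the level of *Srp54a* without a ligature was 65.3 ± 5.54 normalized CPM (SD, n = 3) for the knock-in and 70.3 ± 13.8 for WT mice, or, in the ligatured mice, 68.7 ± 3.21 and 77.1 ± 21.8. Under a 60% HFD, it was 69.6 ± 4.30 and 52.6 ± 5.76 without a ligature, and 78.2 ± 3.94 and 46.4 ± 5.20 with one. The ND groups hold WT libraries with a high *Srp54a*. Without replicates 1 and 2 of the ligatured WT mice, the interaction was 0.44 (adjusted p = 0.0986, limma), and without the 2 libraries against their labels it was 0.63 (adjusted p = 0.0588, limma). In the latter fit *Dynlt1b* passed instead, 1 of 9 against 0.62% of all genes. Its genotype difference, which is negative, was less negative under a 60% HFD by 1.08 (adjusted p = 0.0475, limma), a smaller difference than under an ND. In that fit 0 of 9 passed for genotype by ligature (0.421%) or by 40% HFD (0.523%). *Dynlt1b* was 24.1 to 42.6 normalized CPM in the 5 CCL19-KI libraries of that fit under a 60% HFD and 11.3 to 25.0 in the 6 under an ND.

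**Figure D4:**
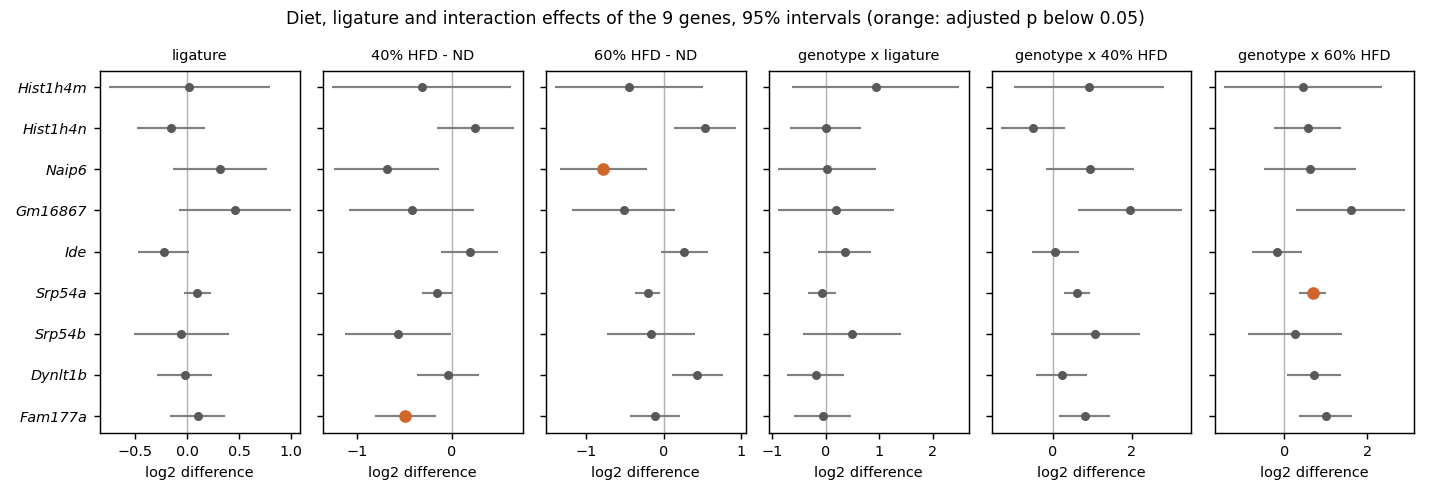
Log2 differences of the 9 genes (points) with 95% intervals (lines) for the ligature, for each high-fat diet against an ND, and for the change of the genotype difference with each of them, from the limma fit over 36 libraries. The orange points, *Fam177a* under a 40% HFD, *Naip6* under a 60% HFD and *Srp54a* for genotype by 60% HFD, are those with an adjusted p below 0.05.

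The genes around the 9 were chosen by position and tested for genotype. Of the 102 tested genes whose start lies within 500 kb of the start of any of the 9 (GENCODE M21, GRCm38), 9 passed, all higher in CCL19-KI mice, against 0.459% of all genes. They lay at 2 of the loci. At *Gm16867*, 7 of 15 tested neighbours passed. *Gm21451*, an unprocessed pseudogene inside it, was at 0 reads in 13 WT libraries and had a median of 6.02 normalized CPM in CCL19-KI mice (log2 difference 2.14, standard error 0.30, adjusted p = 2.60e-04, limma). *Entpd4*, which encodes an intracellular nucleotide hydrolase, had a median of 22.7 in WT and 46.7 in CCL19-KI mice (log2 difference 0.90, standard error 0.15, adjusted p = 4.00e-03, limma). Its copy *Entpd4b*, 191.9 kb from the start of *Gm16867*, had medians of 12.9 and 25.4 (log2 difference 0.84). The other 4 were *Gm20236* and *Gm37094*, with a log2 difference of 0.48 each, and *Gm38378* and *Gm37513*, with 0.53 each. Each of these pairs had identical values in every library. *Entpd4*, *Gm21451*, *Gm38378* and *Gm37094* overlap *Gm16867* in position, *Entpd4b* is a copy of *Entpd4*, and *Gm20236* and *Gm37513* have the values of the genes they are paired with, so none of the 7 calls is a measurement independent of *Gm16867*, which was chosen for its genotype difference.

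These neighbours went with *Gm16867* in the ligatured WT mice fed an ND. *Entpd4* was 46.8 and 43.6 normalized CPM in replicates 1 and 2, at the CCL19-KI median, and 22.0 in replicate 3. *Gm21451* was 7.31 and 5.52 in them and 0 in replicate 3. *Entpd4* was higher still, 113, 127 and 108, in the library labelled WT against its *Ccl19* and in replicates 2 and 3 of the CCL19-KI mice fed a 60% HFD without ligature. Epididymis markers summed to 5401, 3796 and 13060 normalized CPM in these libraries, and their part in the level of *Entpd4* was not tested.

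At *Ide*, 2 of 10 tested neighbours passed. *Btaf1*, which encodes a remover of the TATA-binding protein from DNA, had medians of 49.1 and 62.4 in WT and CCL19-KI mice (log2 difference 0.32, standard error 0.06, adjusted p = 4.87e-03, limma). *Fgfbp3*, a carrier of fibroblast growth factors, had medians of 0.44 and 1.31 (log2 difference 0.56, adjusted p = 0.0102, limma). Their starts lie at -342.7 and -351.2 kb from that of *Ide*, while the nearest tested genes on either side, *March5* and *Kif11*, had log2 differences of -0.35 (adjusted p = 0.0718, limma) and 0.02. In the 2 libraries against their labels, *Btaf1* was 61.6 in the one labelled WT and 50.8 in the one labelled CCL19-KI.

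No neighbour passed at the other loci, which held 29 tested genes at *Hist1h4m* and *Hist1h4n*, 18 at *Naip6*, 14 on chromosome 12 and 16 at *Dynlt1b*. The nearest tested genes had log2 differences of -0.24 (*Hist1h2bq*) and -0.28 (*Hist1h2ap*) around the H4 pair, 0.05 (*Naip5*) and 0.15 (*Naip1*) around *Naip6*, 0.11 (*2700097O09Rik*) and 0.35 (*Gm2446*) around the chromosome 12 genes, and -0.03 (*Gm29719*) and -0.33 (*Tmem181b-ps*) around *Dynlt1b*. Without the 2 libraries, 19 of the 102 neighbours passed, 12 higher and 7 lower in CCL19-KI mice, against 7.35% of all genes. They then included 3 at *Naip6*, 2 on chromosome 12, of which *Gm2446* was higher (log2 difference 0.40), and 1 at *Dynlt1b*, *Tmem181b-ps*, which was lower (-0.36).

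**Figure D5:**
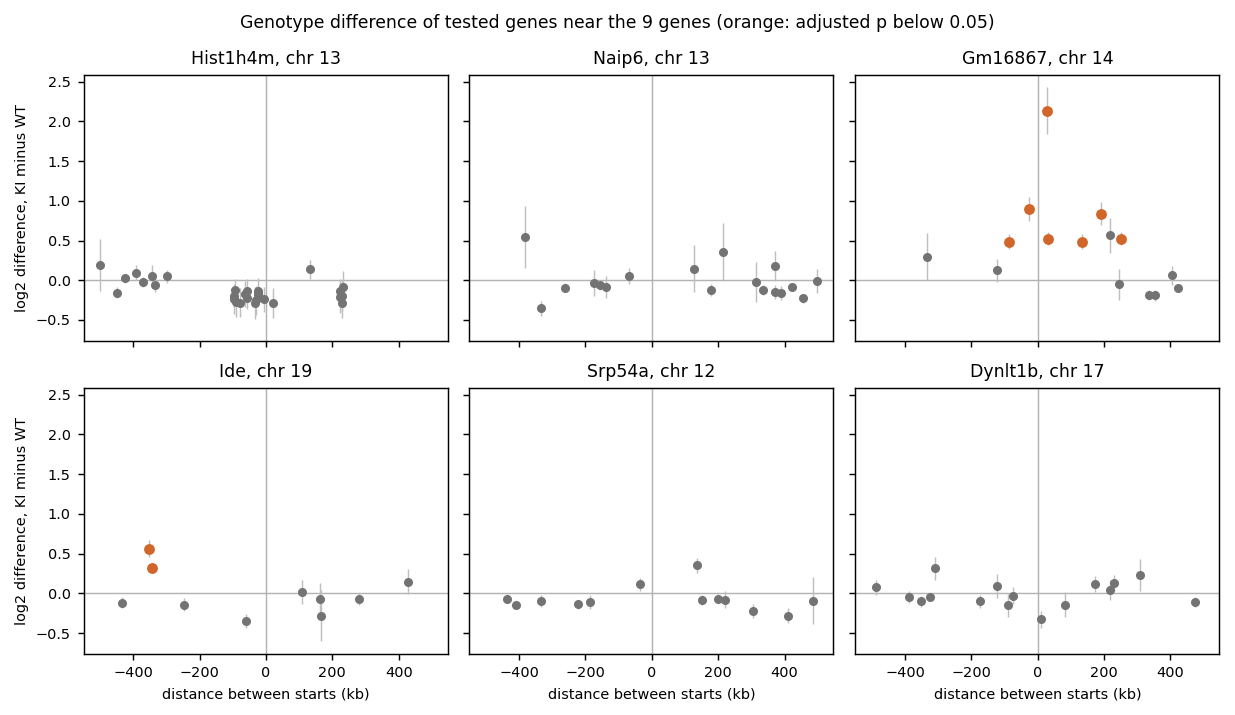
Genotype difference (log2, CCL19-KI minus WT, with its standard error) of the tested genes within 500 kb of 6 of the 9 genes, against the distance between starts in kb. Orange points have an adjusted p below 0.05 and are seen at the *Gm16867* and *Ide* loci.

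Of 143 tested genes in 12 lists of relatives and partners, 0 passed for genotype (limma, adjusted p below 0.05), 25 had an unadjusted p below 0.05 and edgeR called 0, where limma called 0.459% of all genes and 16.9% had an unadjusted p below 0.05. The median log2 difference over the lists was -0.12, against -0.02 over all genes. The 11 other histone H4 genes had log2 differences of -0.41 to -0.17, and the 38 tested genes of the other histones in the same cluster ranged from -0.44 to -0.09. The 6 proliferation markers summed to a median of 35.6 normalized CPM in WT and 35.0 in CCL19-KI mice. *Naip1*, *Naip2* and *Naip5* had 0.15, -0.08 and 0.05, and the 10 partners of the NLRC4 inflammasome ranged from -0.22 to 0.05. The 8 other SRP subunits and receptor genes ranged from -0.15 to 0.01 and the 16 genes of the translocon, the channel that takes up the nascent protein, from -0.12 to 0.03. *Dynlt1a*, *Dynlt1c* and *Dynlt1f* had 0.09, 0.12 and 0.04, and the 16 other dynein and dynactin genes ranged from -0.28 to 0.18. The 11 proteases of the *Ide* list ranged from -0.22 to 0.08 and the 10 genes of the insulin receptor pathway from -0.50 to -0.03. Without the 2 libraries, 11 of the 143 passed, all lower in CCL19-KI mice, among them *Hist1h4c* (-0.35), *Dctn3* (-0.31) and *Akt2* (-0.38), against 7.35% of all genes. The 13 histone mRNA processing and H4 chaperone genes ranged from -0.17 to 0.08, and the FAM177 list held no other tested gene.

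The likeness of single genes to the 9 is given as a description, since genes chosen for a genotype difference share it. Over the log2 values of 36 libraries, which share the genotype labels, *Naip6* was most like *Gm16867* (Pearson r = 0.96), *Hist1h4m* most like *Gm2564* (0.95) and then *Naip6* (0.91) and *Ccl19* (0.91), and *Hist1h4n* most like *Dynlt1b* (0.82). *Ide* was most like its neighbour *Btaf1* (0.83), *Srp54a* and *Srp54b* most like *Gm16867* (0.78 and 0.74), *Fam177a* most like *Naip6* (0.77), and *Dynlt1b* most like *Ehd1* (0.82). With the 12 group means taken away and the 2 libraries left out, *Naip6* and *Gm16867* were the only ones of the 9 most like another of the 9 (0.80). These libraries include the ligatured WT mice fed an ND, where both genes were high in replicates 1 and 2 and low in replicate 3. The part of that group in the correlation was not tested. *Hist1h4m* was most like *Pear1* (0.69), *Ide* most like *Hadha* (0.96), an enzyme of fatty acid oxidation, and *Srp54a* most like *Ddx18* (0.74). *Srp54b* was most like *Adora1* (0.80), *Dynlt1b* most like *Ptpn18* (0.83), *Fam177a* most like *Bmp3* (0.86) and *Hist1h4n* most like *Rpl39* (0.85).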

How the data were processed

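The deposited table held, per the authors, edgeR-normalized CPM (a signal value per gene and library) of gene-level RSEM counts. The authors trimmed the reads with Trimmomatic 0.38 and mapped them to mouse transcripts with Bowtie2 within RSEM 1.3.0. They name mm10, while the submitters' processing notes list GRCm39, and the annotation release is not given in the sources used here. Coordinates and sequences are from GENCODE M21 (GRCm38), which holds 24634 of the 24750 gene IDs. Where the series' description and the sample labels differ on the ligature, the labels were followed.

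The values of each library are whole multiples of 1 read (tolerance 0.01), so reads were recovered (100% of values). Values were tested as log2(normalized CPM + 1) with limma 3.58.1 in R 4.3.3 on 12 group means, keeping genes that reached 1 normalized CPM in 3 or more libraries, with Benjamini-Hochberg adjustment over all genes tested and calls at an adjusted p below 0.05. Alternatives were pseudocounts of 0.1 and 5, no filter or a mean of at least 5, median-of-ratios scaling, edgeR 4.0.16 on the reads, robust eBayes, a replicate block, ligatured or unligatured mice only, and leaving out each library. The code was tested on simulated data. The genes, the lists and the tests were chosen with earlier results of these data known. Leaving out the 2 libraries against their labels, or replicates 1 and 2 of the ligatured WT mice fed an ND, was added after seeing the data. The genes named are the 9, their copies, the neighbours that passed and the nearest tested ones, and those of highest correlation. Other genes named from the lists, or named in fits without the 2 libraries, were chosen after their values were seen. No 2 libraries agreed within sampling noise (chi-square per degree of freedom of at least 15.3 over 36 pairs within and 20.3 over 594 pairs across groups). Each library is 1 mouse. Precision at low levels is set by depth, with 3 reads worth 0.142 to 0.250 normalized CPM.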

Additional observations from a re-analysis of the deposited data

Results flagged for a closer look

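The genotype difference of *Srp54a* differed between diets, by a test of the difference itself: it was 0.68 higher on the log2 scale under a 60% HFD than under an ND (adjusted p = 0.0448, limma, in 12 groups of 3). The adjusted p ranged from 0.0189 to 0.199 over the 12 other settings and from 0.0101 to 0.110 when single libraries were left out, and was 0.05 or above in 22 of those 36 fits.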

How the results depend on the processing

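The genotype difference of each of the 9 genes, averaged over the diets and ligature states in a fit, kept its direction in every setting tried and with each library left out. Under an ND alone, that of *Srp54a* went the other way, at -0.09 without and -0.12 with a ligature. Those of *Hist1h4m*, *Naip6* and *Gm16867* depend on the pseudocount, being 6.46, 3.75 and 4.86 with 0.1 and 1.92, 0.88 and 1.22 with 5. The number of the 9 genes called under a 40% HFD, 1 in the reported fit, was 0 with a pseudocount of 5, without a filter, with median-of-ratios scaling, in mice without ligature only and without replicates 1 and 2 of the ligatured WT mice fed an ND, 3 with edgeR (10.7% of all genes) and 2 without the 2 libraries against their labels (7.9%). Under a 60% HFD, 1 in the reported fit, it was 0 with a pseudocount of 5, without a filter, in mice without ligature only and without the 2 ligatured WT mice, and 3 with edgeR (18% of all genes) and in ligatured mice only (35.6%, so that 3 of 9 is near the background). For genotype by 60% HFD, also 1, it was 0 without a filter, with median-of-ratios scaling, in ligatured mice only, in mice without ligature only and without the 2 ligatured WT mice, and 2 with edgeR (6.05%). The number of genes that kept the genotypes apart, 0 over all libraries, was 3 in ligatured mice only (0.056% of all genes) and 2 without the 2 libraries (0.0224%). Of the neighbours, 9 in the reported fit (0.459% of all genes), 3 passed with a mean of at least 5 or in ligatured mice only. It was 1 in mice without ligature only and 19 without the 2 libraries (7.35%). With a mean of at least 5, 0.415% of 11797 genes passed, and not all of the neighbours were among those tested. The shares in ligatured or unligatured mice only are not given here, so those 2 neighbour counts have no background. Of the genes of the lists, 0 in the reported fit, 11 passed without the 2 libraries (7.35% of all genes). The cause of these changes was not tested. Settings that change the test alone give no other value for genes that kept the genotypes apart, and the ligature has no contrast in ligatured or unligatured mice alone. *Naip6* did not reach a mean of 5.

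With single libraries left out, 0 to 3 of the 9 genes were called under a 40% HFD, 0 to 3 under a 60% HFD, 0 to 2 for genotype by 60% HFD, 0 to 1 for genotype by 40% HFD (1 without replicate 1 of the CCL19-KI mice fed an ND without ligature) and 0 for the ligature and its interaction. The reported fit over all libraries called 9.21% of all genes under a 40% HFD and 18.6% under a 60% HFD. It called 0.476% for genotype by 60% HFD and 0% for genotype by 40% HFD. Shares of all genes in the fits with single libraries left out are not given here. *Fam177a* lost its call in 25 and *Naip6* in 28 of the 36 fits. From 9 to 14 neighbours passed (14 without the library labelled WT against its *Ccl19*), and each of the 9 neighbours kept its call. From 0 to 6 genes of the lists passed, and 0 to 1 of the 9 genes kept the genotypes apart (1 without the library labelled CCL19-KI against its *Ccl19*).

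The replicate numbers did not pair the samples: the deviations of same-numbered libraries had a median correlation of -0.02 over 198 pairs, against 0.02 over 396 pairs of other numbers. With the replicate block, 2 of the 9 genes were called under a 60% HFD and 1 gene of the lists for genotype. No other count or call of a named gene changed. Without the block, 18.6% of all genes were called under a 60% HFD and 0.459% for genotype. The shares with the block are not given here, so the counts with it have no matching background. Depth limits *Naip6* and *Gm16867* in WT mice, where most values are a few reads.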
